A study of Mus musculus with 9 samples.

Results

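The DNA damage checkpoint and repair genes described here are 40 genes of homologous recombination, the Fanconi anaemia pathway, mismatch repair, end joining, excision repair and the checkpoint kinases, taken by gene symbol from the platform annotation. They were followed through the submandibular gland, a salivary gland, in mice of the Smgb-Tag genotype, a line in which regulatory sequence of the salivary gene Smgb is known to drive the SV40 large T antigen. The series holds 9 Illumina BeadChip arrays of 45281 probes, 3 from glands labelled normal, 3 from dysplastic glands and 3 from adenocarcinomas. All 3 groups share the Smgb-Tag genotype, so no array shows a gland without the transgene. The labels give no age and do not state whether each array is 1 animal, so the spread behind every p-value below may be a technical one. Genes of the gland's acinar cells, most of them for secreted products, were far above background on the normal arrays. Their median log2 intensities were 15.38, 15.33 and 14.02 over 13 genes.

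Cells meet DNA breaks and stalled replication forks with 2 kinds of response. Checkpoint kinases (ATM with CHK2, and ATR with ATRIP, TOPBP1, Claspin and CHK1) slow the cell cycle, while repair pathways restore the DNA. Homologous recombination copies the sister chromatid and works in S and G2 phase, whereas end joining and much of excision repair work throughout the cycle. Many recombination, Fanconi and checkpoint genes are transcribed at the entry to S phase under E2F factors, which the RB proteins restrain. Large T antigen binds the RB proteins and p53, and is also known to induce DNA damage signalling in cells that express it.

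Of the 40 genes, 38 had a probe in the platform annotation, with 91 probes in all. A probe counted as measured when its log2 intensity exceeded 6.34, a background level set from the bulk of dim probes, on at least 3 of the 9 arrays. By this filter 33 genes were tested among 12705 genes, each through its brightest probe. Nbn, Fancb, Xrcc5, Atr and Mdc1 were not, since their 7 probes ranged from 5.65 to 6.41 with 1 value above background, and so only a bound holds for the break sensor Nbn, the Ku80 subunit Xrcc5 and the checkpoint kinase Atr. Xrcc2 and Rbbp8 are not analysed here. Brca1, Bard1, Fanci, Chek1 and Exo1 lay below background on normal 1 and normal 2, and Fanca on all normal arrays, so these 6 genes passed through arrays where they were higher. A count over the 33 tested genes is therefore a description and not a count over all 40.

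Normal 3 did not resemble its group. Over the tested genes it correlated at 0.868 and 0.877 with normal 1 and normal 2, which correlated at 0.992 with each other, and at 0.969 with dysplasia 2 and 0.972 with adenocarcinoma 2. For 30 of the 33 genes normal 3 was the highest normal array, against 45.2% of all tested genes. Every comparison with normal glands is therefore given on all 9 arrays and again without normal 3. That array was set aside with its values known, which leaves a pair of nearly equal normal arrays, so the adjusted p-values without it are too favourable.

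The plot of differences from normal 1 and 2 shows the shape of the data. Most recombination, Fanconi and mismatch repair genes, together with Clspn and Chek1, were higher on normal 3 and on the dysplasia and adenocarcinoma arrays than on normal 1 and 2. Nucleotide excision genes and the other checkpoint genes varied less.

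**Figure D1:**
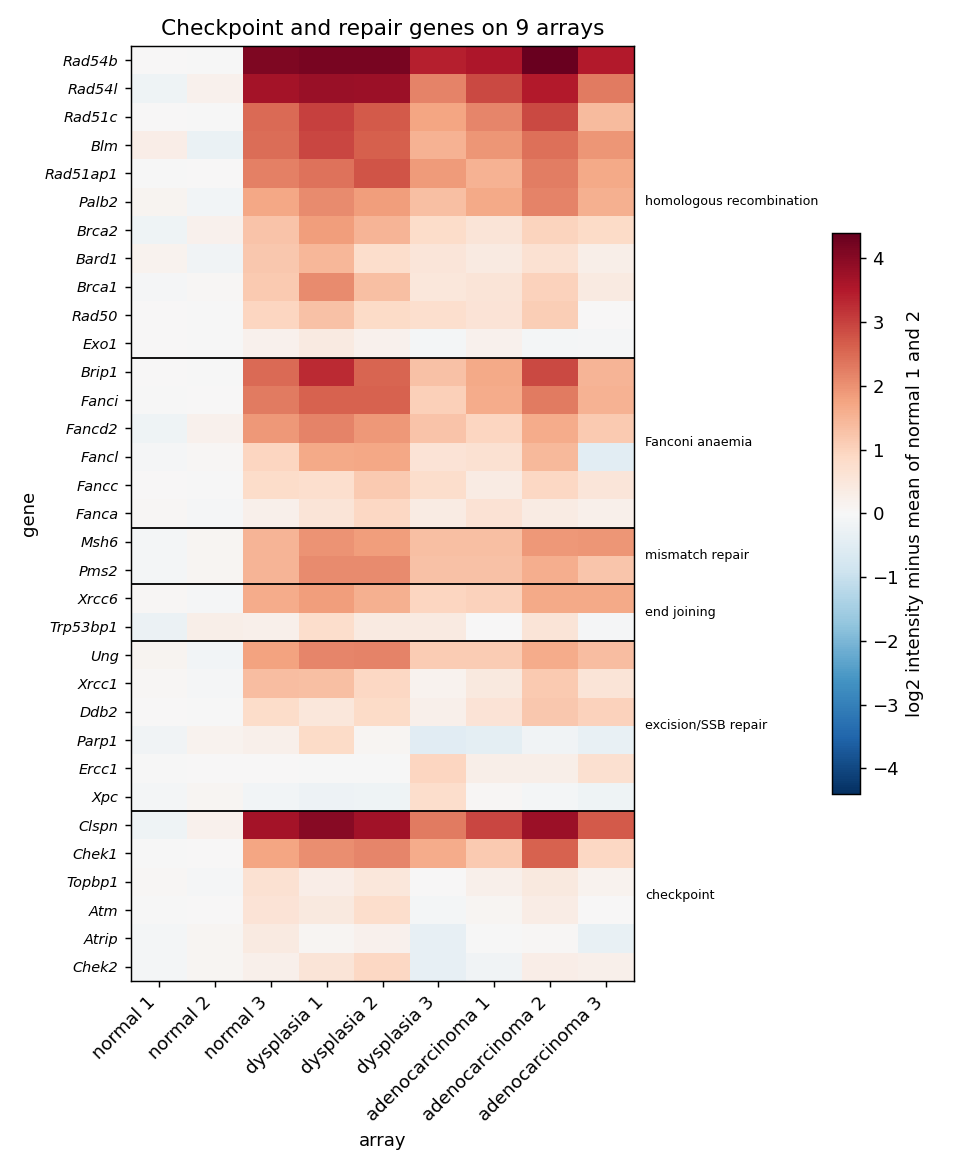
Log2 intensity of 33 genes (rows, grouped by role) on 9 arrays (columns), shown as the difference from the mean of normal 1 and normal 2 of the same gene. Rad54b, Rad54l and Clspn show the largest differences, and Xpc, Ercc1, Atm, Atrip and Chek2 stay within 1 log2 unit of 0 on every array.

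Dysplasia was first compared with normal glands. On all 9 arrays no gene of the 33 passed an adjusted p of 0.05 in limma, as none did among all 12705 genes (0%). At an unadjusted p under 0.05, 9 of the 33 were higher and 0 lower in dysplasia, where 12.1% of all genes were higher and 10.1% lower. The log2 fold change was above 0 for 32 of the 33, against 53.9% of all genes, with a median of 0.92 against 0.04. The groups separated with dysplasia higher for 2 of the 33, Fanca and Trp53bp1, where 12.3% of all genes did so. Fanca was below background on every normal array and on dysplasia 3.

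Without normal 3, 17 of the 33 genes rose in dysplasia at an adjusted p under 0.05 in limma and none fell. Of all genes 12.5% rose and 11.3% fell. Here and below, rose and fell mean a change that passed this threshold. By role, 7 of 11 recombination genes rose, 4 of 6 Fanconi genes, both mismatch repair genes, 1 of 2 end joining genes, 1 of 6 excision genes and 2 of 6 checkpoint genes. The difference between roles was not tested.

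Among the recombination genes, the genes of DNA translocases showed the largest differences. Rad54b stood at log2 intensities of 6.85, 6.80 and 10.93 in normal glands, 11.0, 11.0 and 10.26 in dysplasia and 10.39, 11.17 and 10.33 in adenocarcinoma. Normal 1 and 2 were low, and all other arrays, normal 3 included, lay between 10.26 and 11.17. On all 9 arrays dysplasia exceeded normal by 2.56 ± 1.01 on the log2 scale (SE; limma adjusted p = 0.20). Without normal 3 Rad54b rose 15.2-fold, or 3.93 ± 0.33 in log2 units (limma adjusted p = 0.0012). Only 1 of the 2 Rad54b probes was measured, as was so for Rad54l, Palb2 and Fanci. The other Rad54b probe lay between 5.78 and 6.15, below background on every array.

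Its paralog Rad54l had log2 intensities of 6.35, 6.73 and 10.19 in normal glands, 10.32, 10.30 and 8.74 in dysplasia and 9.43, 10.03 and 8.81 in adenocarcinoma. Dysplasia minus normal was 2.03 on all 9 arrays (adjusted p = 0.26) and 3.25 without normal 3 (adjusted p = 0.0081). Dysplasia 3 and adenocarcinoma 3 were more than 1 log2 unit below the highest arrays of their groups.

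Rad51c encodes a protein needed for strand exchange in homologous recombination. Its log2 intensities were 7.19, 7.19 and 9.67 in normal glands, 10.20, 9.87 and 8.94 in dysplasia and 9.34, 10.10 and 8.59 in adenocarcinoma. Rad51ap1, whose protein promotes the pairing of DNA strands, stood at 6.51, 6.52 and 8.74 in normal glands, 8.91, 9.27 and 8.39 in dysplasia and 8.03, 8.78 and 8.19 in adenocarcinoma. Both were at one level on normal 1 and 2 and overlapped the dysplasia arrays on normal 3. Their log2 fold changes of dysplasia against normal were 1.65 and 1.60 on all 9 arrays (adjusted p = 0.23 and 0.18), and 2.48 and 2.34 without normal 3 (adjusted p = 0.014 and 0.0039).

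The BRCA genes differed less. Brca2, which acts on resected DNA ends, had log2 intensities of 6.98, 7.34 and 8.42 in normal glands, 9.0, 8.66 and 7.97 in dysplasia and 7.74, 8.14 and 7.99 in adenocarcinoma. Palb2, the bridge between BRCA1 and BRCA2, had 6.78, 6.55 and 8.36 in normal glands, 8.75, 8.51 and 7.98 in dysplasia and 8.33, 8.85 and 8.22 in adenocarcinoma. Without normal 3 both rose in dysplasia, by 1.38 and 1.75 in log2 units (adjusted p = 0.021 and 0.0073).

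Brca1 was below background on normal 1 and 2, at 5.99, 6.07 and 7.20 in normal glands, 8.11, 7.35 and 6.54 in dysplasia and 6.60, 7.04 and 6.41 in adenocarcinoma, and its ubiquitin ligase partner Bard1 had no array above 7.62. Against a background of 6.34 on normal 1 and 2, Brca1 was at least 1.99-fold higher in dysplasia without normal 3, and the test did not pass (adjusted p = 0.067). For Bard1 the bound was 1.68-fold (adjusted p = 0.059). Dysplasia 1 had the highest value of both genes.

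Blm, the helicase that dissolves crossed recombination intermediates, had 8.66, 8.05 and 10.82 on the normal arrays, 11.29, 10.99 and 9.88 in dysplasia and 10.29, 10.77 and 10.29 in adenocarcinoma. It rose without normal 3, by 2.37 in log2 units (limma adjusted p = 0.01). Rad50, a subunit of the break-binding MRE11 complex, ranged from 9.56 to 10.86 over the 9 arrays and did not pass without normal 3 (log2 fold change 0.95, adjusted p = 0.075).

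Exo1, the exonuclease of end resection, varied least of the recombination genes. Its log2 intensities were 6.26, 6.21 and 6.42 in normal glands, 6.61, 6.42 and 6.14 in dysplasia and 6.41, 6.14 and 6.19 in adenocarcinoma, around the background level on all arrays. Dysplasia minus normal was 0.09 ± 0.17 (limma adjusted p = 0.77), with a 95% interval of -0.30 to 0.48, and a probe this dim gives only a bound on the transcript.

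In the Fanconi pathway, which repairs crosslinks between DNA strands, the helicase gene Brip1 differed most. Brip1 had log2 intensities of 6.78, 6.77 and 9.28 in normal glands, 10.05, 9.33 and 8.05 in dysplasia and 8.46, 9.68 and 8.26 in adenocarcinoma. Its log2 fold change of dysplasia against normal was 1.53 ± 0.79 on all 9 arrays (adjusted p = 0.28) and 2.37 ± 0.63 without normal 3 (adjusted p = 0.034). The dysplasia arrays spread over about 2 log2 units, with dysplasia 3 lowest.

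Fancd2 and Fanci encode the heterodimer that is ubiquitylated at a crosslink. Fancd2 stood at 6.34, 6.69 and 8.42 on the normal arrays, 8.69, 8.43 and 7.77 in dysplasia and 7.45, 8.14 and 7.66 in adenocarcinoma. Fanci stood at 6.0, 6.07 and 8.32 in normal glands, 8.64, 8.63 and 7.10 in dysplasia and 7.66, 8.34 and 7.56 in adenocarcinoma. Both genes were lowest on dysplasia 3 within dysplasia and highest on adenocarcinoma 2 within adenocarcinoma. Without normal 3, Fancd2 rose 3.44-fold (adjusted p = 0.01) and Fanci at least 3.44-fold (adjusted p = 0.023), the latter against normal arrays below background.

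The ubiquitin ligase of the pathway is Fancl, within a core complex that includes Fanca and Fancc. Fancl had 8.19, 8.26 and 9.16 in normal glands, 9.90, 9.91 and 8.82 in dysplasia and 8.89, 9.65 and 7.76 in adenocarcinoma, so that adenocarcinoma 3 was the lowest of all 9 arrays. It did not pass in dysplasia without normal 3 (log2 fold change 1.31, adjusted p = 0.14). Its 4 measured probes gave log2 fold changes of adenocarcinoma against normal from -0.07 to 1.01, so the probes disagree there.

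Fancc rose without normal 3, by 0.89 in log2 units (limma adjusted p = 0.027). Fanca was below background on every normal array, at 5.96, 5.86 and 6.14, and stood at 6.49, 6.83 and 6.29 in dysplasia and 6.56, 6.29 and 6.15 in adenocarcinoma. Although normal and dysplasia did not overlap, the difference was at least 1.14-fold with an adjusted p = 0.17 in limma.

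Both mismatch repair genes had the lower normal 1 and 2 and the higher remaining arrays seen above. Msh6, which recognises mispaired bases, had log2 intensities of 10.35, 10.51 and 11.93 in normal glands, 12.41, 12.29 and 11.75 in dysplasia and 11.76, 12.33 and 12.38 in adenocarcinoma. Pms2, an endonuclease subunit that acts after recognition, had 7.35, 7.51 and 8.92 in normal glands, 9.51, 9.52 and 8.72 in dysplasia and 8.73, 9.02 and 8.66 in adenocarcinoma. For each gene all dysplasia arrays except dysplasia 3 exceeded normal 3. Their log2 fold changes of dysplasia against normal were 1.22 ± 0.42 and 1.33 ± 0.42 on all 9 arrays (limma adjusted p = 0.175 and 0.17), the latter being the lowest of the 33 genes. Without normal 3 they rose 3.29-fold and 3.53-fold (adjusted p = 0.0065 and 0.0056).

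For end joining, Xrcc6 encodes the Ku70 subunit that caps broken ends. Xrcc6 stood at 10.89, 10.79 and 12.47 in normal glands, 12.68, 12.39 and 11.78 in dysplasia and 11.85, 12.50 and 12.51 in adenocarcinoma. It rose in dysplasia without normal 3 (log2 fold change 1.44 ± 0.32, adjusted p = 0.018), and its 3 measured probes had the same sign on all 9 arrays. Trp53bp1, which steers breaks towards end joining, had 9.44, 9.98 and 9.94 in normal glands, 10.49, 10.09 and 10.10 in dysplasia and 9.73, 10.28 and 9.67 in adenocarcinoma. Its dysplasia arrays were all above its normal arrays, on average by 0.44 in log2 units (limma adjusted p = 0.30), although its 3 probes ranged from -0.03 to 0.44.

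Among excision genes, only Ung, the uracil glycosylase of base excision repair, rose in dysplasia without normal 3. It had log2 intensities of 9.65, 9.38 and 11.29 in normal glands, 11.66, 11.69 and 10.63 in dysplasia and 10.64, 11.15 and 10.89 in adenocarcinoma. Dysplasia minus normal was 1.22 ± 0.51 on all 9 arrays (adjusted p = 0.21) and 1.81 without normal 3 (adjusted p = 0.012). Its 4 measured probes ranged from 0.0045 to 1.22 on all 9 arrays, and only the brightest one was tested.

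Parp1, the sensor of single-strand breaks, gave 10.85, 11.14 and 11.24 in normal glands, 11.85, 11.09 and 10.49 in dysplasia and 10.57, 10.83 and 10.66 in adenocarcinoma. All adenocarcinoma arrays were below all normal arrays, and the mean difference of -0.39 did not pass (limma adjusted p = 0.55). Xrcc1, the scaffold for sealing such breaks, ranged from 8.80 to 10.21, with its highest value on normal 3 (dysplasia against normal 0.34, adjusted p = 0.67).

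Of the nucleotide excision genes, the damage sensor Xpc had 8.81, 8.99 and 8.77 in normal glands, 8.68, 8.71 and 9.69 in dysplasia and 8.97, 8.83 and 8.73 in adenocarcinoma, and the nuclease subunit Ercc1 had 8.56, 8.62 and 8.62 in normal glands, 8.57, 8.56 and 9.53 in dysplasia and 8.85, 8.84 and 9.31 in adenocarcinoma. On dysplasia 3 both were about 1 log2 unit above the other dysplasia arrays. Most other members had their lowest dysplasia value on that array. The log2 fold changes of dysplasia against normal were 0.17 and 0.29 (adjusted p = 0.74 and 0.56), with 95% intervals of -0.46 to 0.79 and -0.35 to 0.93.

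The partner sensor Ddb2 had log2 intensities of 8.13, 8.11 and 8.91 in normal glands, 8.63, 8.96 and 8.35 in dysplasia and 8.73, 9.31 and 9.14 in adenocarcinoma. In contrast to most members its brightest probe was higher on average in adenocarcinoma than in dysplasia. Without normal 3 Ddb2 rose in adenocarcinoma, by 0.94 in log2 units (limma adjusted p = 0.042). It did not pass in dysplasia (0.53, adjusted p = 0.16).

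The checkpoint genes fell into unlike patterns. Clspn, the adaptor through which ATR activates CHK1, had log2 intensities of 6.96, 7.33 and 10.81 in normal glands, 11.15, 10.83 and 9.44 in dysplasia and 10.10, 10.93 and 9.85 in adenocarcinoma. Dysplasia minus normal was 2.11 ± 0.98 on all 9 arrays (limma adjusted p = 0.24). Without normal 3 Clspn rose 10.1-fold (adjusted p = 0.007). Its 4 probes ranged from 0.46 to 2.11 on all 9 arrays, all in one direction.

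Chek1 encodes the effector kinase of that branch. It had 5.88, 5.93 and 7.66 in normal glands, 7.96, 8.05 and 7.56 in dysplasia and 7.04, 8.49 and 6.83 in adenocarcinoma, with adenocarcinoma 2 the highest of the 9 arrays. Without normal 3 Chek1 rose at least 2.86-fold in dysplasia, against 2 normal arrays below background (adjusted p = 0.026).

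The remaining 4 checkpoint genes did not pass with or without normal 3. When arrays were weighted, 3 of them passed in dysplasia, as did 7782 of all 12705 genes. Atm, the kinase that answers double-strand breaks, had log2 intensities of 10.39, 10.46 and 11.02 in normal glands, 10.85, 11.20 and 10.33 in dysplasia and 10.51, 10.74 and 10.46 in adenocarcinoma. Chek2, the kinase downstream of ATM, had 8.28, 8.48 and 8.59 in normal glands, 8.96, 9.30 and 8.02 in dysplasia and 8.24, 8.66 and 8.60 in adenocarcinoma. Their log2 fold changes of dysplasia against normal were 0.17 and 0.31 on all 9 arrays, with 95% intervals of -0.44 to 0.77 and -0.42 to 1.04. Without normal 3 they were 0.36 ± 0.26 and 0.38 ± 0.36 (SE). With array weights they were 0.67 and 0.78 and passed in limma (adjusted p = 0.0026 and 0.0046). The weights were 0.17 for normal 3 and 6.44 for dysplasia 2, the highest dysplasia array of both genes. On all 9 arrays without weights, the measured probes of each gene differed in sign in dysplasia against normal. They ranged from -0.03 to 0.30 over 4 probes for Atm and from -0.04 to 0.42 over 3 for Chek2.

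Atrip, the ATR partner, had 8.0, 8.16 and 8.49 in normal glands, 8.17, 8.25 and 7.72 in dysplasia and 8.07, 8.14 and 7.76 in adenocarcinoma. It was the 1 gene of the 33 with a log2 fold change below 0 in dysplasia against normal (-0.17, adjusted p = 0.65). Topbp1, the ATR activator, was close to background, at 6.44, 6.32 and 7.03 in normal glands, 6.68, 6.88 and 6.39 in dysplasia and 6.60, 6.79 and 6.54 in adenocarcinoma, and dysplasia minus normal was 0.06 (adjusted p = 0.91). With array weights it was 0.47 (limma adjusted p = 0.0053), and dysplasia 2 was its highest dysplasia array too. Both had their highest value on normal 3.

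**Figure D2:**
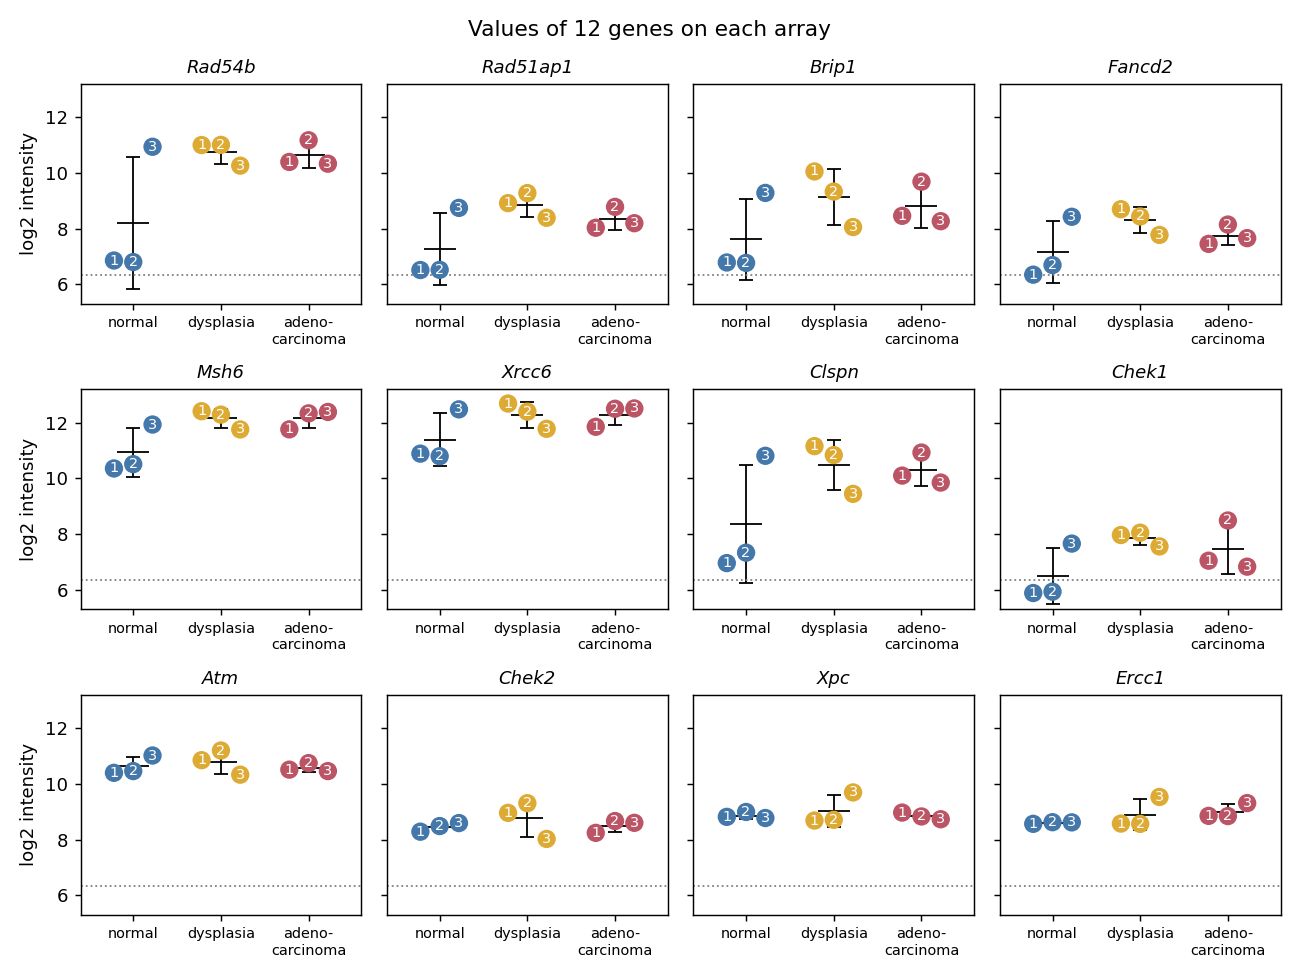
Log2 intensity (vertical axis) of 12 genes in each group, where numbered points are the replicate arrays, the black line and bar are the mean ± SD (n = 3) and the dotted line is the background level of 6.34. In the upper panels normal 3 lies among the dysplasia and adenocarcinoma arrays while normal 1 and 2 lie lower, and in the bottom row the 3 groups overlap or lie close together.

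Adenocarcinoma was then compared with the same normal arrays, so this comparison is not independent of the one before. On all 9 arrays none of the 33 genes passed in limma (lowest adjusted p = 0.27), nor did any of all genes (0%). At an unadjusted p under 0.05 there were 4 higher and 0 lower, where 8.05% of all genes were higher and 7.82% lower. Those 4 were Rad54b, Palb2, Msh6 and Ddb2. Log2 fold changes were above 0 for 28 of the 33, against 51% of all genes, with a median of 0.40 against 0.01. Fanca and Ercc1 were higher on every adenocarcinoma array than on any normal array (10.4% of all genes were). Parp1 was lower on every one (9.77% of all genes). For Fanca all normal arrays and adenocarcinoma 2 and 3 lay below background, with 6.15 on adenocarcinoma 3 and 6.14 on normal 3. Its order there shows no measured difference.

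Without normal 3, 14 of the 33 genes rose in adenocarcinoma and none fell, where 7.6% of all genes rose and 7.86% fell. They comprised 6 of 11 recombination genes, 2 of 6 Fanconi genes, both mismatch repair genes, 1 of 2 end joining genes, 2 of 6 excision genes and 1 of 6 checkpoint genes. Rad54b rose 14-fold (adjusted p = 0.0018), Rad54l 7.4-fold (adjusted p = 0.016) and Clspn 8.85-fold (adjusted p = 0.012). Rad51c, Rad51ap1, Blm and Palb2 rose by log2 fold changes of 2.16, 1.82, 2.10 and 1.80. Msh6, Pms2 and Xrcc6 rose by 1.73, 1.38 and 1.45 on the same scale.

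Fanci rose at least 2.85-fold and Fancd2 2.35-fold, close to the threshold (adjusted p = 0.048 and 0.045). Ung rose 2.59-fold (adjusted p = 0.039). Brip1 (log2 fold change 2.03, adjusted p = 0.071) and Chek1 (at least 2.16-fold, adjusted p = 0.068) did not pass. Brca2, with 0.80, did not pass either (adjusted p = 0.13).

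**Figure D3:**
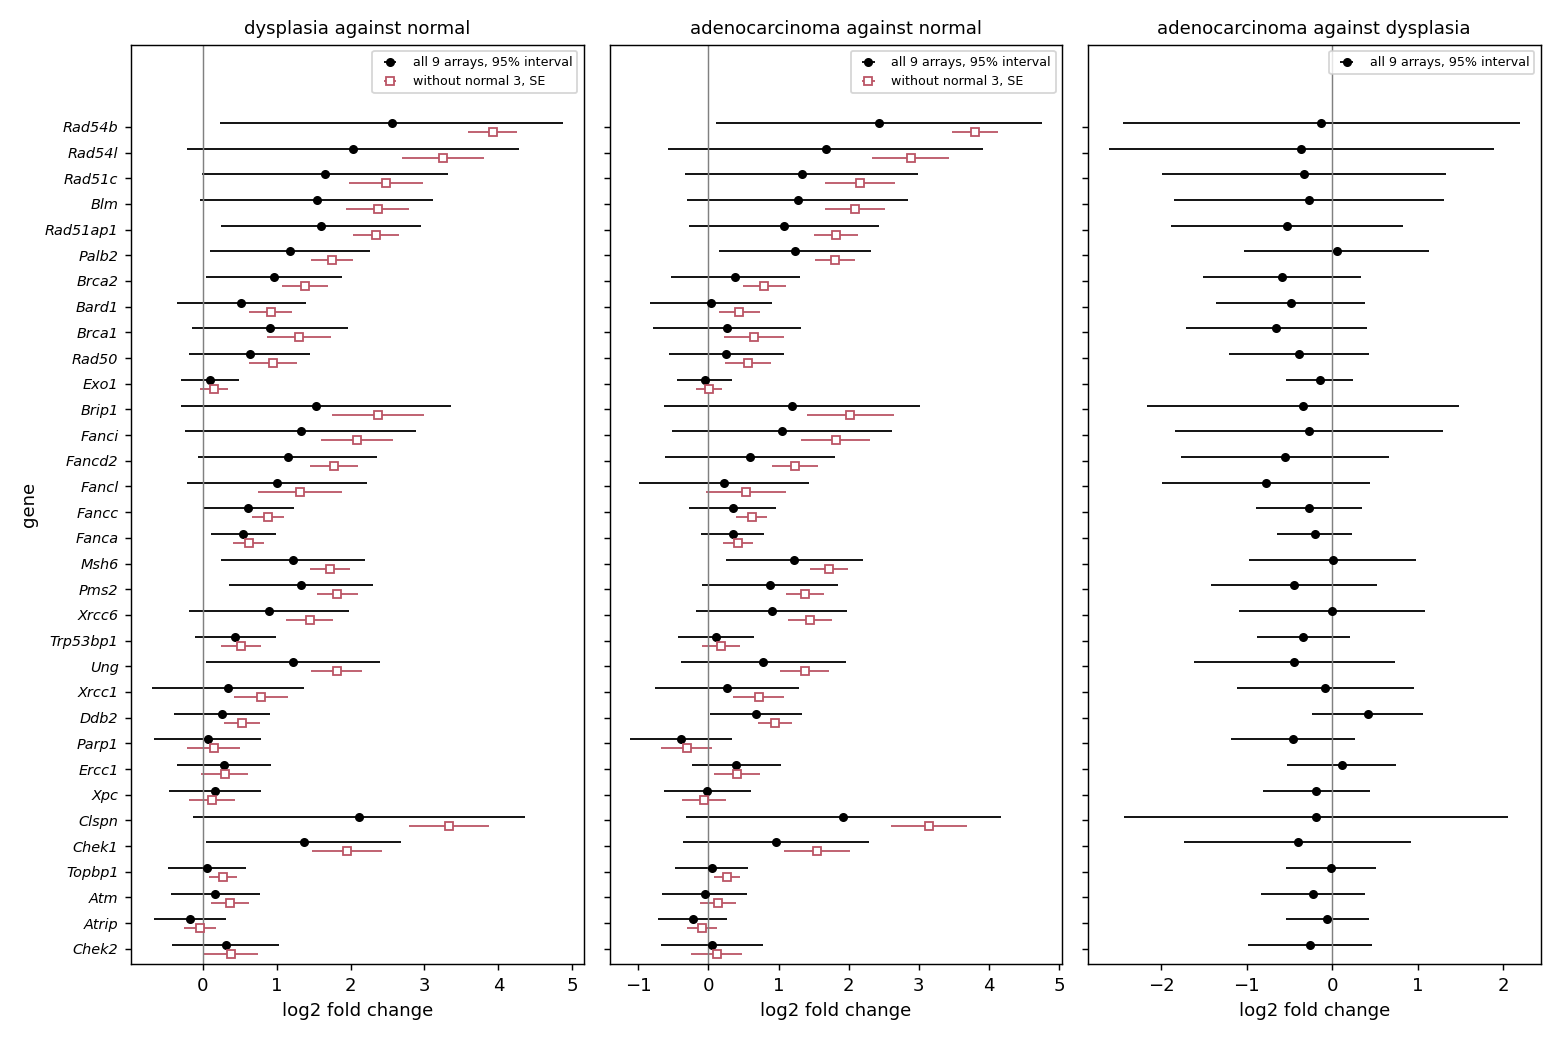
Log2 fold changes (horizontal axis) of the 33 genes in the 3 comparisons. Black points with 95% intervals come from all 9 arrays, and open squares with SE from the 8 arrays without normal 3. Rad54b, Rad54l and Clspn lie farthest to the right in both comparisons with normal glands, and every interval crosses 0 in adenocarcinoma against dysplasia.

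The third comparison set adenocarcinoma against dysplasia, with means that do not involve the normal arrays. None of the 33 genes passed in limma (0% of all genes, lowest adjusted p = 0.89), and none reached an unadjusted p under 0.05 (2.05% of all genes were higher and 2.18% lower). For none of them did the groups separate, where 4.03% of all genes were higher and 6.55% lower without overlap. Values above 0 were found for 5 of the 33, against 44% of all genes, and the median was -0.27 against -0.05. No gene of the 33 differed by as much as 2-fold.

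The lowest values were those of Fancl, at 8.77 ± 0.95 in adenocarcinoma and 9.54 ± 0.63 in dysplasia (SD, n = 3), a log2 fold change of -0.78 with a 95% interval of -1.99 to 0.44. Brca1 and Brca2 followed, at -0.65 (95% interval -1.71 to 0.40) and -0.58 (-1.51 to 0.34). Fancd2 had a log2 fold change of -0.55 (-1.76 to 0.67). Ddb2 was the highest, at 9.06 ± 0.30 in adenocarcinoma and 8.65 ± 0.31 in dysplasia, a difference of 0.42 (-0.23 to 1.07). In this comparison the 4 measured probes of Fancl ranged from -0.78 to 0.14 and the 4 of Ddb2 from -0.02 to 0.42. The probes of each of these genes thus differed in sign. The half-width of these 95% intervals had a median of 0.98 over the 33 genes. The spread behind it is pooled over the 3 groups and so includes normal 3, without which the median half-width was 0.68, the lowest adjusted p of the 33 was 0.69 in limma, and again none reached an unadjusted p under 0.05.

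Within groups the members tended to move together. In dysplasia, dysplasia 3 was the lowest array for 29 of the 33 genes, against 43.6% of all genes. In adenocarcinoma, adenocarcinoma 2 was the highest for 27 of the 33, against 40.4% of all genes, and adenocarcinoma 3 the lowest for 19, against 38.2%. Xpc and Ercc1 were the 2 genes with their highest dysplasia value on dysplasia 3.

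Lists of replication and mitosis genes were likewise low on normal 1 and 2 alone. For 34 replication genes the median log2 intensity was 7.82, 8.06 and 11.26 on normal 1, 2 and 3, 11.40, 11.40 and 10.77 in dysplasia and 10.82, 11.26 and 11.09 in adenocarcinoma. For the 33 checkpoint and repair genes it was 7.19, 7.34 and 8.91, then 9.0, 9.30 and 8.72, then 8.73, 9.02 and 8.60. All 34 replication genes and all 24 mitosis genes had log2 fold changes above 0 in dysplasia against normal, with medians of 1.81 and 2.47, where the 33 genes had 0.92. None of them passed on all 9 arrays, where 18 replication genes and 15 mitosis genes were higher at an unadjusted p under 0.05 (12.1% of all genes were). Without normal 3, 33 of the 34 replication genes and all 24 mitosis genes rose (12.5% of all genes did). Their part in the result was not tested.

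**Figure D4:**
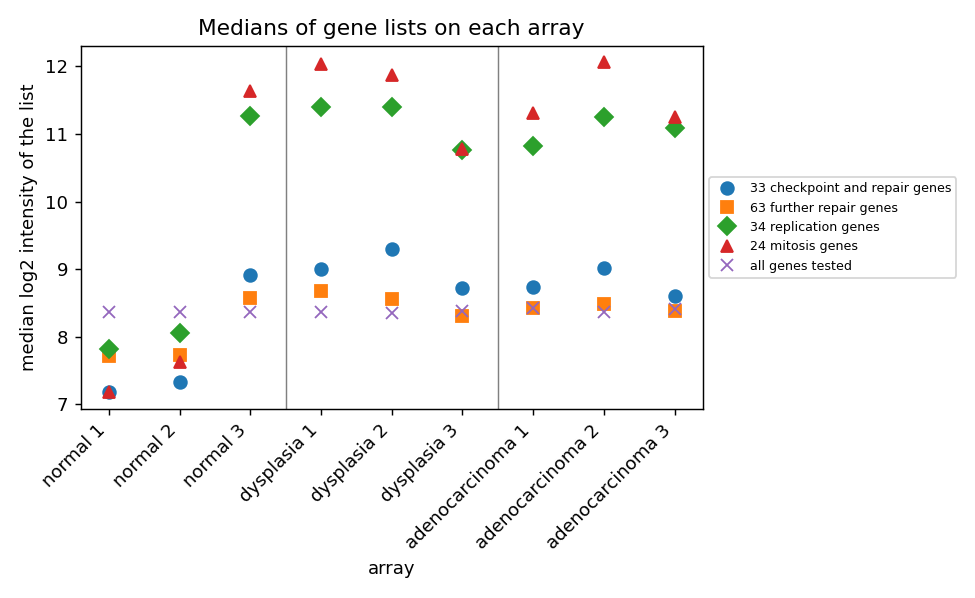
Median log2 intensity (vertical axis) of 5 gene sets on each of the 9 arrays. All sets except the one of all tested genes are lowest on normal 1 and 2. Levels of different sets rest on different probes, so only changes along a set can be read.

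Marker genes of other cells of the gland also differed between these arrays. The summed intensity of 8 adipocyte genes was 15748 to 28504 on normal 1 and 2, 2100 on normal 3, 585 to 1743 in dysplasia and 899 to 7164 in adenocarcinoma, and between 2 and 6 of these genes were at background on each array. For 8 T cell genes it was 2541 to 2543 on normal 1 and 2, 975 on normal 3, 686 to 874 in dysplasia and 857 to 1758 in adenocarcinoma. For 6 B and plasma cell genes it was 4307 to 5904, 756, 482 to 621 and 472 to 2094 in that order. The sum of 13 acinar genes was 454818 to 472154 on normal 1 and 2, 254572 on normal 3, 42813 to 70746 in dysplasia and 78584 to 363955 in adenocarcinoma. In the same order, the sum of 8 granular tubule genes was 313769 to 319071, 155881, 6420 to 90364 and 18989 to 221118. That of 8 skeletal muscle genes was 6869 to 8308, 1455, 640 to 1322 and 711 to 30764. For 9 macrophage genes, normal 3 was instead the highest normal array, at 24181 against 15596 to 17415, with 8048 to 54134 in dysplasia and 30239 to 44020 in adenocarcinoma. On each array 2 to 5 T cell genes, 1 to 3 B cell genes, 0 to 3 acinar genes and 0 to 6 muscle genes were at background, and no tubule or macrophage gene was. Their part in the result was not tested. In whole tissue, fewer cells of a type and less RNA per cell cannot be told apart.

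A further list held repair and checkpoint genes outside the 40. Of 76 such genes 63 were tested, and on all 9 arrays none passed in any comparison. At an unadjusted p under 0.05, 16 were higher and 0 lower in dysplasia against normal, where 12.1% of all genes were higher and 10.1% lower. In adenocarcinoma against normal 10 were higher and 1 lower, where 8.05% and 7.82% of all genes were. The median log2 fold change in dysplasia was 0.47, and 55 of the 63 were above 0, against 53.9% of all genes. Without normal 3, 21 rose in dysplasia (12.5% of all genes did) and 13 in adenocarcinoma (7.6%), and none fell.

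The highest log2 fold changes of that list in dysplasia were those of Ube2t, Mre11a, Timeless and Tipin. Ube2t encodes the ubiquitin-conjugating enzyme that works with FANCL. It had log2 intensities of 6.28, 6.39 and 9.22 in normal glands, 10.30, 10.26 and 9.37 in dysplasia and 9.41, 9.93 and 8.84 in adenocarcinoma. Its dysplasia arrays all lay above its normal arrays, on average by 2.68 ± 0.75 in log2 units (SE; limma adjusted p = 0.16). For Mre11a, the nuclease of the RAD50 complex, the log2 fold change was 1.81 (adjusted p = 0.17). Timeless and Tipin, which together protect the fork, had 1.72 and 1.66 (adjusted p = 0.18 and 0.22).

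Without normal 3 these 4 genes rose by log2 fold changes of 3.64, 2.61, 2.53 and 2.56. The lowest of the list were the polymerase of base excision repair, Polb, at -0.44 (adjusted p = 0.34), and Mgmt, the methyltransferase that removes alkyl groups from guanine, at -0.17 (adjusted p = 0.90). Mgmt stood at 10.41 on adenocarcinoma 3, where the other arrays lay between 6.48 and 8.24.

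Promoter sequences of RefSeq (GRCm38.p6, 250 bases before to 50 after the gene start) were at hand for 27 of the 33 tested genes. They were searched on both strands for the E2F sites TTTGGCGC and TTTCCCGC, for the CHR element TTTGAA and for CCAAT, which can mark promoters of cell cycle genes. An E2F site of these letters stood in 6 of the 27, against 1.56% of 32851 promoters of that length. TTTGAA stood in 1 of them, Bard1, against 17.9%, and CCAAT in 16, against 37.4%. A gene counted where any of its listed promoters matched, whereas each share is per promoter, so the units are not alike. A match describes letters and shows no binding, and a window without one says nothing about the factor.

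The 6 sites are shown with the 10 bases on either side, 5′ to 3′ on the strand of the gene, because they are the matches behind that count. Capitals mark TTTCCCGC or its complement read on the other strand, and the windows lie in GRCm38.p6 at chr5:150522443-150522470 (Brca2, plus strand), chr1:71103164-71103191 (Bard1, minus strand), chr11:87404942-87404969 (Rad51c, minus strand), chr17:87975055-87975082 (Msh6, plus strand), chr15:82016313-82016340 (Xrcc6, plus strand) and chr5:110839821-110839848 (Chek2, plus strand).
Brca2: ttaggccacaGCGGGAAAcagacacaca
Bard1: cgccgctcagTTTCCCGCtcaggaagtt
Rad51c: ccccgcgaggGCGGGAAAagcaaggggt
Msh6: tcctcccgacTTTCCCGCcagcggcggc
Xrcc6: gggggtggaaGCGGGAAAtgcgagtggg
Chek2: gggattagccGCGGGAAAccaagacgtc
The site of Rad51c began 5 bases before the gene start and that of Xrcc6 46 bases before it. The other upstream sites began 152, 168 and 209 bases before the start of Chek2, Brca2 and Bard1, and the one of Msh6 16 bases after its start. Of these 6 genes, Brca2, Rad51c, Msh6 and Xrcc6 rose in dysplasia without normal 3, whereas Bard1 and Chek2 did not pass. Among all 33 tested genes 17 rose in that fit, and a link to the sites was not tested.

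Whole promoters are shown for the 2 genes with the largest and the 2 with the smallest log2 fold change of dysplasia against normal in either direction, among genes with a sequence, so that both ends of the range can be compared. They lie at chr4:126556730-126557029 (Clspn, plus strand), chr4:116123641-116123940 (Rad54l, minus strand, the first of its 2 listed starts), chr1:180568641-180568940 (Parp1, plus strand) and chr9:103305077-103305376 (Topbp1, plus strand). Capitals mark CCAAT or its complement ATTGG, and none of TTTGGCGC, TTTCCCGC and TTTGAA occurred in any of them. Other spellings of the E2F site were not searched, so their absence is not shown. The letters gcgcgaaa, close to the GCGGGAAA of the sites above, can be read in the promoters of Clspn and Topbp1. These genes come from opposite ends of the range, so the absence of the searched letters does not set the ends apart.
Clspn: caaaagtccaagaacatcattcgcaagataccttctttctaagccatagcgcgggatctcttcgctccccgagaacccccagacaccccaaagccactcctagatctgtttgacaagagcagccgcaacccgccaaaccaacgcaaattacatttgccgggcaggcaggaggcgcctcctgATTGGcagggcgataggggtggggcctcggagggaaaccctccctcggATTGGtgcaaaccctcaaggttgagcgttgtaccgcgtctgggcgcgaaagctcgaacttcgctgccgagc
Rad54l: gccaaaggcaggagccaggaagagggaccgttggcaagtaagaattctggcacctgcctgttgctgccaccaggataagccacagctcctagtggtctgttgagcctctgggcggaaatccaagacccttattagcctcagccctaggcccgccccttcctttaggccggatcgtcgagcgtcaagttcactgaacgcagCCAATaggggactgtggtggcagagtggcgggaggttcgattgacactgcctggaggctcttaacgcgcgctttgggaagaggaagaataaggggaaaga
Parp1: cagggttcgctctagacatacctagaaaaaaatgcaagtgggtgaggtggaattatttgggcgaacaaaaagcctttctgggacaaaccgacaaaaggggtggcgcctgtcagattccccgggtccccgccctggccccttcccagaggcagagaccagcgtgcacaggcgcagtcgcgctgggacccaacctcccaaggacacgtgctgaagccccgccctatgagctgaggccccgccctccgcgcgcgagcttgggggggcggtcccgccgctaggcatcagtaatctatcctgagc
Topbp1: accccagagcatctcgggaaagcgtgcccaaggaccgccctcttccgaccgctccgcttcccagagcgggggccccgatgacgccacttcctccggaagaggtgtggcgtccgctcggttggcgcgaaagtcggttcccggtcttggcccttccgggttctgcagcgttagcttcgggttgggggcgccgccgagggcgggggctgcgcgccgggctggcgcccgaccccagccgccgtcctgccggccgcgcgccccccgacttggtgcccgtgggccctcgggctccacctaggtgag
The 4 promoters were chosen for the size of the change, and the other promoters do not divide in the same way. CCAAT also stood in those of Atm, Atrip, Chek2 and Xrcc1, whose log2 fold changes lay between -0.17 and 0.34, and not in that of Rad51c, at 1.65.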

How the data were processed

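Expression was measured in total RNA on 9 Illumina arrays, grouped by the titles in the labels. The deposited intensities are on a linear scale and, judged from their values, had been quantile-normalized across arrays, since sorted columns differed by at most 0.0992%. The submitters' processing notes name limma. Its version, the scanner's software and any correction for background are not given in the sources at hand. Another table, of 9 signal columns and 9 detection columns, was not used, as its names match no label. Of the 45281 probes 34885 had 1 gene symbol, 18 several and 10378 none.

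Log2 intensities were used here. The background level was the mode of all values (65.4) plus the 95th percentile of the spread below it (intensity 81.1), the percentile used in earlier processing of these data. Probes above it on at least 3 arrays were kept, and the brightest probe stood for a gene. The model was limma 3.58.1 (R 4.3.3), fitted to the 3 group means of 9 arrays with moderated variances, 6 residual degrees of freedom and Benjamini-Hochberg adjustment over 12705 genes, at an adjusted p under 0.05. On simulated data for dysplasia against normal (12705 genes), 5 seeds recovered 28.4% to 32.8%, 59.7% to 73.1% and 80.3% to 93.9% of log2 changes of 1, 2 and 4, with 4 to 11 calls among unchanged genes. The simulated noise was independent between genes, whereas normal 3 departed from its group over many genes at once. These shares therefore do not give the recovery in the data. Permuting 3 arrays against 3 exactly gives no p below 0.1 and was not used. The number of arrays limits the precision.

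The genes and lists were chosen with earlier results of these data known. Per role, values on all arrays are given for the 4 genes with the largest change and the 1 with the smallest, and for Brca1, Brca2, Palb2, Blm and Atm, added for their roles after their values were seen. From the further repair list the 4 highest and 2 lowest are named. Alternatives covered the offset, normexp, cyclic loess, centring, the filter, the mean over probes, the arrays in the fit, array weights, a replicate block and each array left out. Figures were drawn with matplotlib 3.10.9.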

Additional observations from a re-analysis of the deposited data

How the results depend on the processing

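Array labels share the numbers 1 to 3, and the labels do not say whether the numbers pair the samples. Deviations of same-numbered arrays from their group means correlated at -0.46 to 0.24. With 3 arrays a group, and normal 3 apart from its group, these values cannot show whether the samples are paired. With the replicate block 0 of the 33 genes passed in each comparison, as without it, the medians stayed at 0.92, 0.40 and -0.27, and 4 and 1 of the 33 were higher at an unadjusted p under 0.05 in the comparisons with normal glands. Leaving out each array in turn gave 0 to 17 calls of the 33 and a median log2 fold change of 0.67 to 1.31 in dysplasia against normal, 0 to 14 and 0.33 to 0.80 in adenocarcinoma against normal, and 0 to 0 and -0.55 to -0.10 in adenocarcinoma against dysplasia, where all calls among the 33 came without normal 3. Over all genes these calls numbered 0 to 3016, 0 to 1964 and 0 to 1. With array weights, which gave normal 3 a weight of 0.17 and dysplasia 2 one of 6.44, 27, 19 and 0 of the 33 and 7782, 4492 and 4 of all genes passed, and the medians moved to 1.39 in dysplasia against normal, 0.65 in adenocarcinoma against normal and -0.47 in adenocarcinoma against dysplasia. Without a filter 38 of the 40 genes were tested and none passed, with 1 and 6 calls among all genes in the comparisons with normal glands, and cyclic loess gave 1 in adenocarcinoma against normal. In adenocarcinoma against dysplasia some of the 33 reached an unadjusted p under 0.05 in limma at other settings, all of them lower. These were 10 with array weights, 3 without dysplasia 3 and 1 without adenocarcinoma 2. The share of all genes at these settings was not counted. Small differences changed sign, and the cause was not tested. In dysplasia against normal, Parp1 was -0.0317 and Topbp1 -0.0001 with cyclic loess, and Xpc was -0.1793 and Atrip 0.0955 with array weights. In adenocarcinoma against normal, Exo1 was 0.0486 and Chek2 -0.1125 with the mean over probes, and Exo1 was 0.0803, Chek2 -0.0348 and Atm 0.1047 with array weights. With single arrays left out, dysplasia against normal ranged over -0.0206 to 0.218 for Exo1, -0.2853 to 0.3916 for Parp1, -0.0327 to 0.4501 for Ercc1, -0.1636 to 0.3404 for Xpc, -0.0343 to 0.3991 for Atm and -0.0827 to 0.2736 for Topbp1. Adenocarcinoma against normal ranged over -0.2358 to 0.4381 for Bard1, -0.1342 to 0.0096 for Exo1, -0.0104 to 0.5668 for Rad50, -0.2169 to 0.7289 for Fancl, -0.0884 to 0.2149 for Trp53bp1, -0.0803 to 0.0483 for Xpc, -0.1676 to 0.1431 for Atm, -0.0361 to 0.1797 for Chek2 and -0.0923 to 0.264 for Topbp1. Dim probes near background limit what Exo1, Fanca, Bard1, Brca1 and Topbp1 can show. Chek1 and Fanci were below background on normal 1 and 2. On normal 1, Rad54l and Fancd2 lay at its level, at 6.35 and 6.34, and Ube2t below it, at 6.28. The size of the changes of these genes against normal is therefore uncertain.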
